A study of Homo sapiens with 3 samples.

Results

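The 6 genes MANF, CDNF, CRELD2, KDELR1, KDELR2 and KDELR3 were taken by their symbols from per-sample tables of 58243 gene identifiers, and all 6 were found. KDELR1, KDELR2 and KDELR3 encode the KDEL receptors, and MANF, CDNF and CRELD2 encode small proteins of the endoplasmic reticulum (ER) that can be secreted. They were measured by RNA-seq in LoVo, a human colon adenocarcinoma line labelled as epithelial, engineered to express a short hairpin RNA against HRD1 from a Tet-On system that doxycycline switches on. HRD1, encoded by SYVN1, is the ubiquitin ligase that marks misfolded ER proteins for degradation, and the study asked what ER stress after its knockdown does to gene expression. The cells had received 1 µg/ml doxycycline for 0, 3 or 5 days, with 1 library per day. All libraries came from the same engineered line, so the hairpin was present but not induced at day 0. The labels used here describe no culture kept for 3 or 5 days without the drug and no doxycycline-treated culture lacking the hairpin, so drug, days in culture and knockdown cannot be told apart. With 1 library per day there is no replicate check and no p-value. The 95% intervals below are exact intervals of a ratio of counts, cover counting error only, and compare libraries, not conditions.

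Total gene reads came to 21308785 at day 0, 22068686 at day 3 and 25754188 at day 5. SYVN1 had 1212, 650 and 709 reads, and its log2 ratio was -0.88 at day 3 over day 0 and -1.05 at day 5 over day 0, so the targeted gene was lower in both doxycycline libraries. The epithelial label was checked on 11 colon epithelial genes, of which 3 (KRT8, KRT18 and KRT19) reached 1 TPM (a level scaled by gene length and depth) in each library, while CDX2, a transcription factor that defines intestinal epithelium, had 0 reads throughout. EPCAM, an adhesion molecule of epithelial cells, was near 0 with 17, 14 and 19 reads in the same order of days, as was CDH1 (E-cadherin) with 3, 2 and 10. Of 8 mesenchymal genes, 5 reached 1 TPM in each library, with VIM (vimentin) at 4016, 4130 and 3588 TPM. The keratins were abundant too: KRT18 stood at 728, 738 and 727 TPM, KRT8 at 465, 483 and 415, and KRT19 at 137, 194 and 154. The mesenchymal genes CDH2, THY1 and COL3A1 stayed below 1 TPM in every library. CDX2, EPCAM and CDH1 thus go against the colon epithelial label, the keratins do not, and the identity of the line was not tested. Liver, small intestine and blood genes were near 0 at day 0 and day 3 but not at day 5. Over 11 liver genes (SERPINA1, abundant in every library, left out), summed reads were 8, 17 and 646 at day 0, day 3 and day 5, and 8, 7 and 0 of these genes stood at 0 reads. Over 6 small intestine genes, summed reads were 4, 6 and 83, and over 6 blood genes they were 5, 26 and 112.

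KDEL receptors are membrane proteins that cycle between the Golgi and the ER. In the Golgi they bind soluble proteins that end in a short retrieval signal, the KDEL motif or a variant of it, and carry them back to the ER in vesicles coated with the COPI complex. Chaperones such as HSPA5 (BiP) stay in the ER through this cycle. MANF and CRELD2 are known targets of the unfolded protein response, the transcriptional programme that the sensors IRE1, ATF6 and PERK set off when misfolded proteins accumulate. Both carry weak variants of the signal, so that secretion and retention compete. CDNF is a paralogue of MANF and was described as a neurotrophic factor for dopaminergic neurons.

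The ends of the coding sequences show what the receptors bind. Each line gives the last 30 coding bases of a transcript that GENCODE 29 tags as principal (APPRIS), with positions on GRCh38. That of CDNF has 258 coding bases against 558 in MANF, so it is used here for its end alone. The capitals mark the last 4 codons, which encode the retrieval signal, and the 3 bases after them are the stop codon. HSPA5, which ends in the signal that gave the receptors their name, is given for comparison. The positions are chr3:51389060-51389089 on the plus strand for MANF, chr10:14819980-14820009 on the minus strand for CDNF, chr22:49927278-49927307 on the plus strand for CRELD2 and chr9:125236592-125236621 on the minus strand for HSPA5. Each lies within a single coding exon.
MANF: aaggcagccagtgcaCGGACCGATTTGtag
CDNF: gcagcgacacaccccAAAACAGAGCTCtga
CRELD2: acacagctgccctccCGCGAAGACCTGtaa
HSPA5: gaggatacagcagaaAAAGATGAGTTGtag

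The letters of the capital stretches differ between all 4 genes. The receptors are close relatives of each other. Their coding sequences were 75.0% identical between KDELR1 and KDELR2, 72.4% between KDELR1 and KDELR3 and 72.5% between KDELR2 and KDELR3.

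Promoter windows from 250 bases before to 50 bases after the start were taken from RefSeq (GRCh38.p14) for 5 of the 6 genes. They were searched on both strands for exact matches to 3 motifs of the unfolded protein response. These were ERSE (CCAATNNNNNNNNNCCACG), ERSE-II (ATTGGNCCACG) and UPRE (TGACGTGG), which contain or resemble the cores CCAAT and CCACG. The 3 windows below are shown because CRELD2 and KDELR3 hold a match and because MANF, which had the highest ratio at day 5 over day 0 of the 5 genes compared, holds only the separate cores. The capitals mark the ERSE match in CRELD2 (chr22:49918384-49918683, plus strand), the UPRE match in KDELR3 (chr22:38467846-38468145, plus strand), and the CCAAT and CCACG cores in MANF (chr3:51385041-51385340, plus strand). The matches in CRELD2 and KDELR3 and the CCACG core in MANF lie on the reverse strand and are printed as the plus strand reads.
CRELD2: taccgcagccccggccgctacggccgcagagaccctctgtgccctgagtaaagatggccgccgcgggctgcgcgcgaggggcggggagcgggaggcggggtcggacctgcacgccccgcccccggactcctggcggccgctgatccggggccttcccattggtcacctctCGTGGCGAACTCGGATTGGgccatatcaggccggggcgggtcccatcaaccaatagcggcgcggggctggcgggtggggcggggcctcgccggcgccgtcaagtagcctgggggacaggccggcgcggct
KDELR3: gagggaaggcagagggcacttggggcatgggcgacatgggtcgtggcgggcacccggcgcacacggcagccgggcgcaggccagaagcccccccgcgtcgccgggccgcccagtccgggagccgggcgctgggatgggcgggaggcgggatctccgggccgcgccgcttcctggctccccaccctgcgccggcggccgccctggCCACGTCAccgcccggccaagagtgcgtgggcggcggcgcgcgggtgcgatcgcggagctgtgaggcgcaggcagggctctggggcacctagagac
MANF: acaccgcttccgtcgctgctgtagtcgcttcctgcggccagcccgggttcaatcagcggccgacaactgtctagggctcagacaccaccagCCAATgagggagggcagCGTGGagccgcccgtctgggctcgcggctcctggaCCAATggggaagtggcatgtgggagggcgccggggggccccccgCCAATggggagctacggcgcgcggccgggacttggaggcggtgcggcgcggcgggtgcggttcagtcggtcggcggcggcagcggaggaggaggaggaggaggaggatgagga

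The ERSE match of CRELD2 was at chr22:49918554-49918572, 80 to 62 bases before the start. It also lay in the window of ALG12, which is transcribed in the other direction from the same region. ERSE was found in 27 of 35116 RefSeq promoter windows (0.0769%), among them that of HSPA5. ERSE-II was found in 0.0541% of windows and in none of the 5 of these genes. UPRE was found in 0.729% of windows, and in KDELR3 at chr22:38468050-38468057, 46 to 39 bases before the start. The MANF window held 3 CCAAT boxes and 1 CCACG core, but not at the spacing searched. Inexact matches were not searched for, so an element that differs by a base would be missed in any window. CCAAT occurred in 34.6% and CCACG in 38.1% of all windows, so these cores alone are common.

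MANF (ENSG00000145050, chr3:51385047-51389397 on GRCh38, plus strand) was higher in both doxycycline libraries than at day 0. Its reads numbered 1688 at day 0, 2287 at day 3 and 3029 at day 5, all placed uniquely. These correspond to 78.1, 107 and 115 normalised CPM (read counts scaled by library totals with TMM factors, which allow for composition). On this scale the day 0 level was the lowest, and the intervals of day 3 (103 to 112 CPM) and day 5 (111 to 120 CPM) overlapped slightly. The log2 ratio was 0.45 [0.36 to 0.55] at day 3 over day 0, and 2.76% of the 12593 genes compared were at least as high. It was 0.56 [0.48 to 0.65] at day 5 over day 0, a fold of 1.48, and 1.98% of genes were at least as high. The day 5 library stood 0.11 [0.03 to 0.19] above the day 3 library, and 33.3% of genes were at least as high. The authors' TPM values, 158, 198 and 232, had the same order. Reads across exon-exon junctions made up 83.5%, 83.8% and 78.7% of MANF reads and intron reads 2.13%, 2.23% and 2.21%. MANF lies 29.0 CPM above its day 0 level at day 3 and 37.3 CPM at day 5. The summed level of the 11 liver genes was 0.370, 0.796 and 24.6 CPM, and their part in the day 5 value of MANF was not tested. A different mix of cells and a different amount of RNA per cell cannot be told apart in bulk RNA.

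CDNF (ENSG00000185267, chr10:14819250-14838575, minus strand) was barely detected: it had 6 reads at day 0, 5 at day 3 and 5 at day 5. Of these, 5, 3 and 1 were intron reads and 1, 2 and 4 were exon reads. The 3 libraries overlap widely, and 3 reads correspond to between 0.114 and 0.140 CPM. The interval of the fold at day 3 over day 0 ran from 0.204 to 3.32, and at day 5 over day 0 from 0.166 to 2.70, so a difference in either direction was not detectable at this depth. CDNF did not reach the mean of 50 reads required for a gene to be compared, and it is left out of every count below. Its gene model overlaps HSPA14 by 412 bases on the other strand. HSPA14, with reads of 1190, 1175 and 1475, had log2 ratios of 0.00 and 0.03 at day 3 and day 5 over day 0. AC069544.2, which overlaps CDNF there by 410 bases, had -0.11 and 0.04.

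CRELD2 (ENSG00000184164, chr22:49918167-49927540, plus strand) was highest in the day 3 library. Its reads numbered 710 at day 0, 1034 at day 3 and 906 at day 5, or 32.9, 48.4 and 34.5 normalised CPM. The day 3 interval (45.5 to 51.5 CPM) lay above those of day 5 (32.3 to 36.8 CPM) and day 0 (30.5 to 35.4 CPM), which overlapped. The log2 ratio was 0.56 [0.42 to 0.70] at day 3 over day 0, with 1.48% of genes at least as high, and 0.07 [-0.07 to 0.21] at day 5 over day 0. It was -0.49 [-0.62 to -0.36] at day 5 over day 3, and 1.99% of genes were as low or lower. The junction share was 85.4%, 89.1% and 82.1%, and the authors' TPM values were 27.4, 36.5 and 28.2. ALG12, which shares 292 bases of gene model with CRELD2 on the opposite strand, had ratios of 0.06 and -0.10 at day 3 and day 5 over day 0, both with intervals that include 0. Nothing in the labels says that strand was used in counting.

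**Figure D1:**
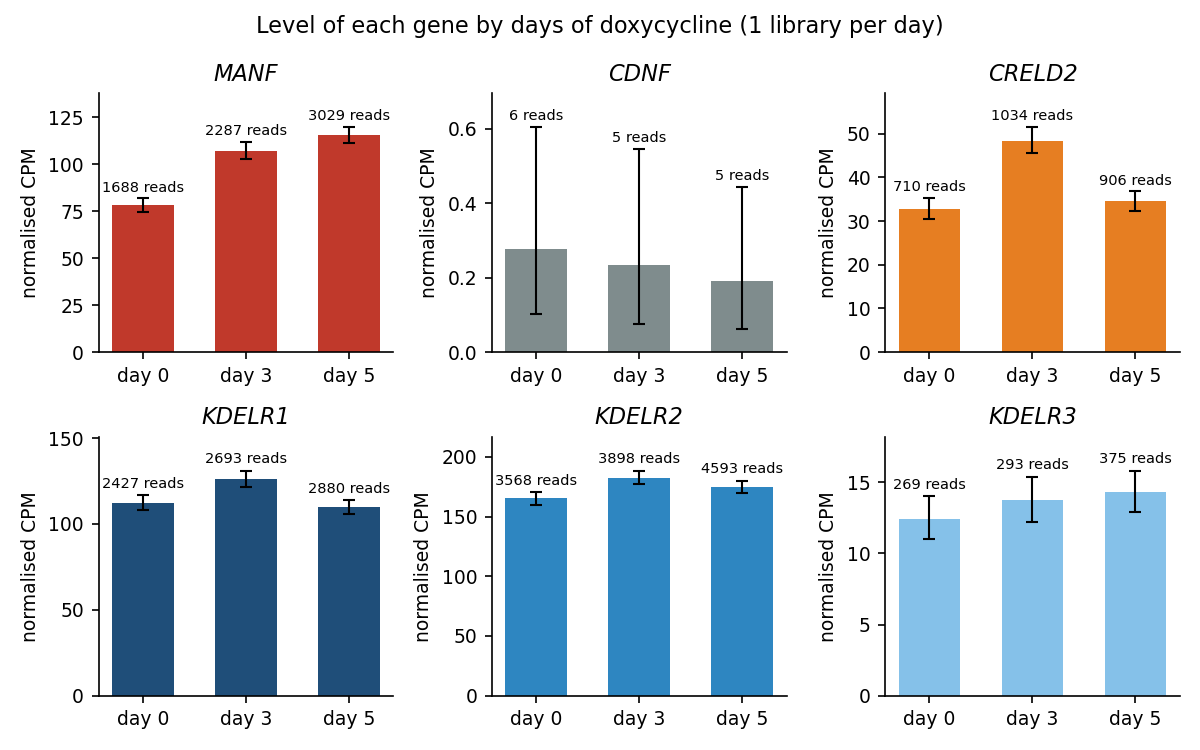
Level of each of the 6 genes (vertical axes, normalised CPM, each starting at 0) after 0, 3 and 5 days of doxycycline. Bars are single libraries, error bars are 95% Poisson intervals of the read count, and raw reads stand above the bars: MANF is lowest at day 0, CRELD2 is highest at day 3, and CDNF has 5 or 6 reads in each library.

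MANF and CRELD2 therefore shared a higher day 3 level but parted at day 5. Their read ratio within a library, which needs no scaling between libraries, was 2.38 [2.18 to 2.60] at day 0, 2.21 [2.05 to 2.38] at day 3 and 3.34 [3.10 to 3.60] at day 5. The day 5 value lay outside both other intervals. Set against HSPA5, the main ER chaperone, MANF had 0.0730, 0.0607 and 0.0794 reads per HSPA5 read at day 0, day 3 and day 5, lowest at day 3. CRELD2 had 0.0307, 0.0275 and 0.0237 reads per HSPA5 read, lowest at day 5. Against SDF2L1, a partner of ER chaperone complexes, CRELD2 had 0.741, 0.713 and 0.715 reads per SDF2L1 read, with overlapping intervals. SDF2L1 itself had log2 ratios of 0.61 at day 3 over day 0, 0.12 at day 5 over day 0 and -0.49 at day 5 over day 3.

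The KDEL receptor genes had ratios closer to 0 than MANF at both doxycycline times and than CRELD2 at day 3. KDELR1 (ENSG00000105438, chr19:48382570-48391553, minus strand), the most abundant receptor per length, had 2427 reads at day 0, 2693 at day 3 and 2880 at day 5, or 112, 126 and 110 normalised CPM. The day 3 library was the highest, with an interval (121 to 131 CPM) above those of day 5 (106 to 114 CPM) and day 0 (108 to 117 CPM). Its log2 ratio was 0.17 [0.09 to 0.25] at day 3 over day 0, -0.03 [-0.11 to 0.04] at day 5 over day 0 and -0.20 [-0.28 to -0.12] at day 5 over day 3. At day 3 over day 0, 23.1% of all genes were at least as high. The day 3 value became 0.04 with the authors' TPM and 0.01 after trends on exon length and GC content were removed, so its size rests on the scale used. The junction share of KDELR1 was 71.0%, 72.2% and 61.6%, and over the reads of all genes it was 60.7%, 61.8% and 57.7%, so the day 5 library was lowest in both.

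KDELR2 (ENSG00000136240, chr7:6445953-6484242, minus strand) had 3568, 3898 and 4593 reads, or 165, 183 and 175 normalised CPM at day 0, day 3 and day 5. The day 3 interval (177 to 188 CPM) lay above that of day 0 (160 to 171 CPM), and the day 5 interval (170 to 180 CPM) overlapped both. The log2 ratio was 0.14 [0.08 to 0.21] at day 3 over day 0, 0.08 [0.02 to 0.15] at day 5 over day 0 and -0.06 [-0.12 to 0.00] at day 5 over day 3. With the authors' TPM the day 3 value was 0.01. Only 48.0% of KDELR2 reads were placed uniquely, and its gene model lies under that of DAGLB, a diacylglycerol lipase gene on the same strand, over 38238 bases. Of the uniquely placed KDELR2 reads, 93.2%, 92.5% and 97.1% crossed exon-exon junctions, while DAGLB kept 97.9%, 98.4% and 97.8% of its reads as unique. DAGLB had 916, 1045 and 1205 reads, fewer than KDELR2 in every library, and ratios of 0.21 at day 3 over day 0 and 0.11 at day 5 over day 0. Restricted to unique reads, KDELR2 had ratios of 0.12 [0.03 to 0.22] and 0.11 [0.02 to 0.20] at day 3 and day 5 over day 0. How reads that fit several places were assigned is not given in the sources used here, so the level of KDELR2 is uncertain.

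KDELR3 (ENSG00000100196, chr22:38468062-38483447, plus strand) was the least abundant receptor, with 269, 293 and 375 reads, or 12.5, 13.7 and 14.3 normalised CPM at day 0, day 3 and day 5. The intervals of all 3 libraries overlapped (11.0 to 14.0, 12.2 to 15.4 and 12.9 to 15.8 CPM). The log2 ratio was 0.14 [-0.10 to 0.38] at day 3 over day 0 and 0.20 [-0.03 to 0.43] at day 5 over day 0. At this depth a difference was not detectable, and the interval at day 5 still holds folds from 0.979 to 1.35. DDX17, an RNA helicase gene on the opposite strand that touches KDELR3 by 8 bases, had ratios of -0.36 at day 3 and -0.24 at day 5 over day 0. Both of its intervals lay below 0, whereas those of KDELR3 include 0.

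**Figure D2:**
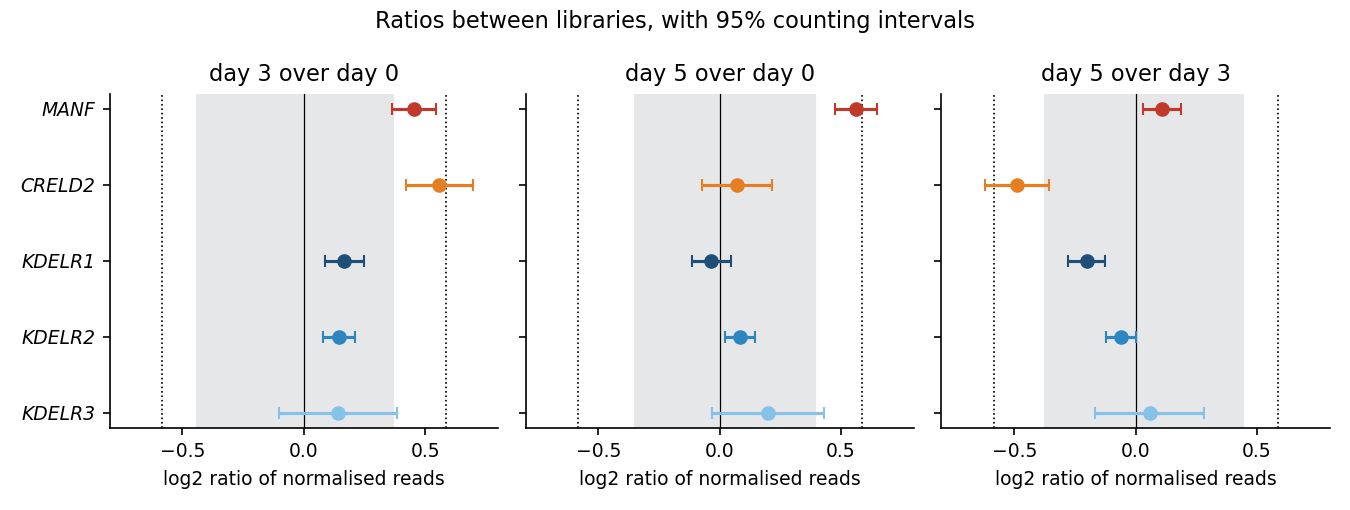
Log2 ratio of normalised reads (horizontal axes) of the 5 compared genes at day 3 over day 0, day 5 over day 0 and day 5 over day 3. Points are ratios between single libraries with 95% counting intervals, grey bands hold the 5th to 95th percentile of 12593 genes, and dotted lines mark 1.5-fold: MANF leaves the band at both doxycycline times, CRELD2 at day 3 over day 0 and at day 5 over day 3, and the receptors stay inside.

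A gene was called when its ratio was at least 1.5-fold with an interval that excluded 1, among the 12593 genes whose reads averaged at least 50 over the libraries. In every comparison 0 of the 5 compared genes were called, where 1.29% of all genes were called higher and 2.53% lower at day 3 over day 0. At day 5 over day 0 the shares of all genes were 1.76% higher and 1.28% lower, and at day 5 over day 3 they were 2.29% higher and 0.961% lower. MANF at day 5 and CRELD2 at day 3, with folds of 1.48 and 1.47, lay just under the threshold. With the interval alone as the rule, 4 of 5 genes (all but KDELR3) were higher at day 3 over day 0, against 25.2% of all genes, and 0 were lower, against 20.8%. With length and GC trends removed, KDELR1 dropped out and 3 of 5 were higher. The authors' TPM carry no counting interval, and KDELR1 (0.04) and KDELR2 (0.01) then lay nearer to 0 than the lower bounds of their intervals above. MANF and KDELR2 were higher at day 5 over day 0 (2 of 5, against 22.8% of all genes) and 0 were lower (against 22.4%). MANF alone was higher at day 5 over day 3 (1 of 5, against 24% of all genes), and CRELD2 and KDELR1 were lower (2 of 5, against 26.1%). The median log2 ratio over all genes was 0.01, 0.01 and 0.00 in these comparisons, and 52.0%, 51.2% and 50.1% of genes were above 0. With the authors' TPM the median at day 3 over day 0 was -0.08 and 32.8% of genes were above 0.

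Levels between genes were compared per length, in the authors' TPM. At day 0 the order was KDELR1 (215 TPM), KDELR2 (179), MANF (158), CRELD2 (27.4), KDELR3 (26.5) and CDNF (0.117). CRELD2 and KDELR3 could not be separated there, with a ratio of 1.04 [0.897 to 1.20]. At day 3 MANF (198 TPM) had passed KDELR2 (181 TPM), below KDELR1 (221 TPM), and CRELD2 (36.5 TPM) stood above KDELR3 (27.0 TPM) with a ratio of 1.35 [1.18 to 1.55]. At day 5 MANF was the most abundant of the 6 genes at 232 TPM, ahead of KDELR1 (208 TPM) by a ratio of 1.12 [1.06 to 1.18] and of KDELR2 (188 TPM). KDELR3 (30.3 TPM) and CRELD2 (28.2 TPM) again could not be separated at day 5, with a ratio of 1.07 [0.946 to 1.22]. The place of KDELR2 in each order carries the doubt over its shared reads. CDNF stood last at 0.216 TPM at day 3 and 0.381 TPM at day 5, from 2 and 4 exon reads.

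The receptors together held 420, 428 and 426 TPM at day 0, day 3 and day 5. KDELR1 made up 51.1%, 51.5% and 48.8% of this sum, KDELR2 42.6%, 42.2% and 44.1%, and KDELR3 6.30%, 6.31% and 7.12%. When only unique reads were used, the KDELR2 share was 26.1%, 25.6% and 27.4% and the KDELR1 share 65.4%, 66.0% and 63.0%, so the order of the receptors was the same and the distance between them was not. Within libraries, KDELR1 had 0.680, 0.691 and 0.627 reads per KDELR2 read at day 0, day 3 and day 5, and 1.41, 1.45 and 1.30 when only unique reads were counted. KDELR3 had 0.111, 0.109 and 0.130 reads per KDELR1 read, with the day 5 interval (0.117 to 0.145) overlapping that of day 0 (0.0974 to 0.126).

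The proteins that the receptors retrieve were described with a list of luminal proteins that end in a KDEL-like signal, of which 36 were in the files and 35 were compared. At day 3 over day 0, 29 of 35 had a ratio above 0, with a median of 0.17, and 3 rose by the call (HSPA5 at 0.72, SDF2L1 at 0.61 and HSP90B1, the ER form of HSP90, at 0.59), while 0 fell. Over all genes 52.0% were above 0 and 1.29% were called higher. With the authors' TPM, 22 of 35 were above 0, the median was 0.06, and HSPA5 alone passed 1.5-fold, where 32.8% of all genes were above 0. At day 5 over day 0, 22 of 35 were above 0, with a median of 0.05, and 0 were called. Over all genes 51.2% were above 0, 1.76% were called higher and 1.28% lower. FKBP14, a prolyl isomerase that acts on collagen, had the highest ratio of the list at 0.48. Only 39.2% of its reads were unique, and unique reads gave 0.14. At day 5 over day 3, 7 of 35 were above 0, with a median of -0.15 and 0 called. Over all genes 50.1% were above 0, 2.29% were called higher and 0.961% lower. The lowest of the list were SDF2L1 (-0.49), COLGALT1 (-0.41), a collagen galactosyltransferase, and SERPINH1 (-0.37), the collagen chaperone HSP47. With the authors' TPM, 11 of 35 were above 0 at day 5 over day 3 (median -0.03), against 64.6% of all genes (median 0.09). Summed over the list, ligand genes held 8248, 9626 and 9048 TPM at day 0, day 3 and day 5. Each TPM of receptor thus faced 19.6, 22.5 and 21.3 TPM of ligand genes, lowest at day 0. HSPA5 alone accounted for 2.84, 4.19 and 3.77 of these, and the other genes for 16.8, 18.3 and 17.5. These are ratios of transcript levels, with no measure of protein.

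**Figure D3:**
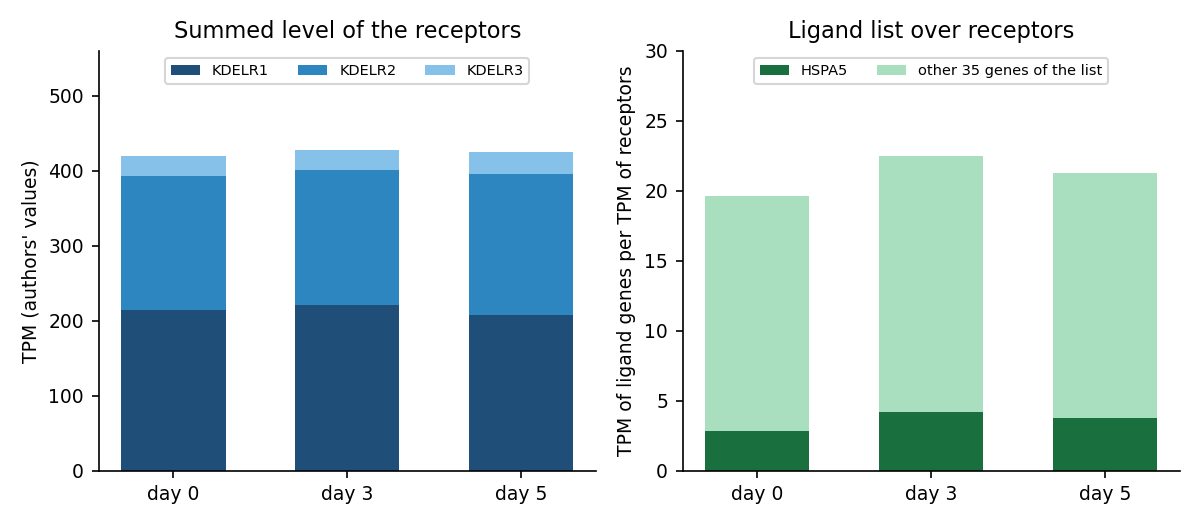
Left, summed TPM of KDELR1, KDELR2 and KDELR3 (the authors' values) in the day 0, day 3 and day 5 libraries. Right, TPM of the 36 ligand genes per TPM of the receptors, with HSPA5 shown apart: the receptor sum stays between 420 and 428 TPM, and the ratio is 19.6, 22.5 and 21.3.

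**Figure D4:**
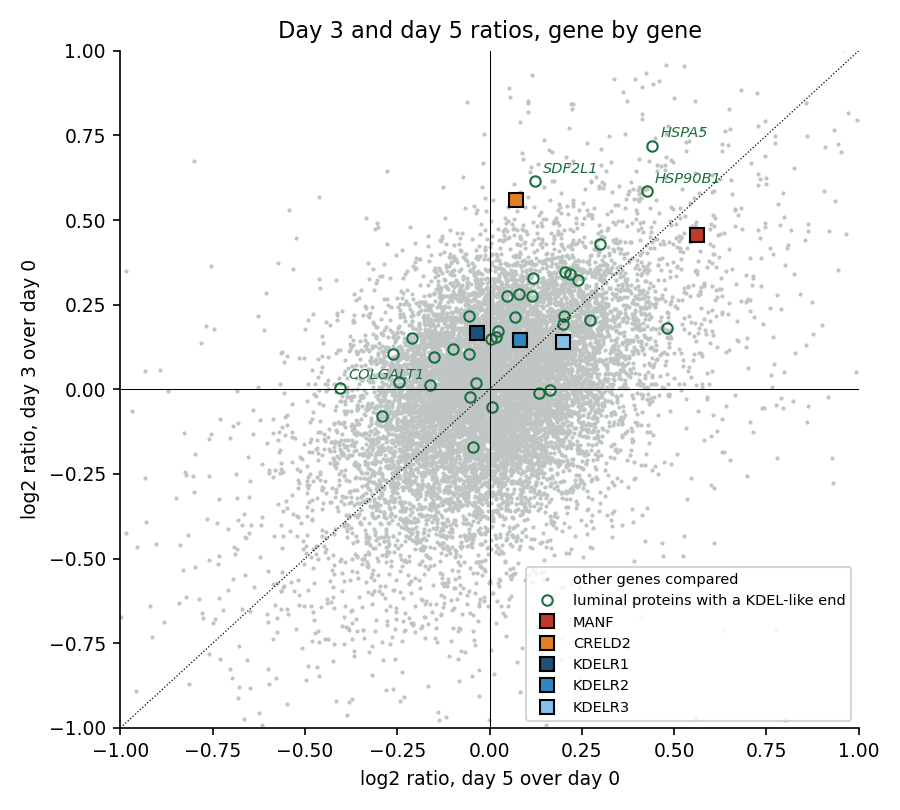
Log2 ratio at day 3 over day 0 (vertical axis) against day 5 over day 0 (horizontal axis) for 12593 genes, each a point, with ratios beyond 1 in either direction not drawn. Circles are the ligand list and squares the 5 compared genes: CRELD2 lies beside SDF2L1 above the dotted line of equal ratios, MANF lies below that line, and the receptors lie near the centre. Both axes share the day 0 library.

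The machinery that carries the receptors was described in the same way. Over all genes 52.0%, 51.2% and 50.1% were above 0 at day 3 over day 0, day 5 over day 0 and day 5 over day 3. In any comparison at most 2.53% of all genes were called in a given direction. With the authors' TPM at day 3 over day 0, 32.8% of all genes were above 0 and the median was -0.08. Of 18 other cargo receptors of the ER and Golgi, 11 were above 0 at day 3 over day 0 (median 0.13), 10 at day 5 over day 0 (median 0.05) and 6 at day 5 over day 3 (median -0.15), and 0 were called in any. With the authors' TPM, 8 of 18 were above 0 at day 3 over day 0, with a median of -0.00136. ERGIC3, a receptor of the ER-Golgi intermediate compartment, shared its highest day with KDELR1, with 0.28 at day 3 over day 0 and -0.42 at day 5 over day 3. LMAN1 (ERGIC-53), the lectin receptor for blood clotting factors, differed from them with -0.07 at day 3 over day 0 and 0.30 at day 5 over day 3. Of 15 compared genes of the COPI coat, ARF GTPases and their GTPase-activating proteins, 13 were above 0 at day 3 over day 0 (median 0.09), 6 at day 5 over day 0 (median -0.05) and 3 at day 5 over day 3 (median -0.13), with 0 called. With the authors' TPM, 5 of 15 were above 0 at day 3 over day 0, near the share of all genes on that scale, and the median was -0.03. ARF1, the GTPase that recruits the COPI coat, had 0.26 at day 3 over day 0 and -0.02 at day 5 over day 0, and COPE, a coat subunit, had 0.23 and -0.19. ARF4, another GTPase of the family, had 0.12 at day 3 and 0.22 at day 5 over day 0. Of 9 genes of the ER tether and the SNAREs that receive retrograde carriers, 7 were above 0 at day 3 over day 0 (median 0.07) and 7 at day 5 over day 0 (median 0.13), with 0 called. With TPM the day 3 median of this group was -0.02, with 4 of 9 above 0. Each of these list medians at day 3 over day 0 thus lay below 0 with TPM, but above the median of all genes on that scale. ZW10, a tether subunit, had 0.32 and 0.20.

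Relatives and partners of the secreted proteins were CRELD1, the membrane-bound paralogue of CRELD2, and NPTN, which encodes neuroplastin, a receptor described for MANF. CRELD1 had a log2 ratio of 0.24 [0.01 to 0.47] at day 3 over day 0 and -0.06 at day 5 over day 0, with the same highest day as CRELD2. Its day 3 value became 0.06 with the authors' TPM, and its interval on unique reads (-0.00682 to 0.463) included 0. NPTN had 0.07 and -0.03, both with intervals that include 0, and 0 of these 2 genes were called.

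The programme that controls MANF and CRELD2 was followed with 16 transcription factors and fast targets of the unfolded protein response, of which 14 were compared. At day 3 over day 0, 9 of 14 were above 0 (median 0.12), against 52.0% of all genes, and 3 rose by the call, against 1.29%. These were DDIT3 (0.68), the stress transcription factor CHOP, of whose reads 55.1% were unique (0.44 on unique reads), HERPUD1 (0.67), a partner of HRD1 in the degradation complex, and DNAJB9 (0.61), an ER cochaperone. With the authors' TPM, 7 of 14 were above 0 with a median of -0.00354, against 32.8% and -0.08 over all genes. DDIT3, HERPUD1 and DNAJB9, at 0.54, 0.55 and 0.46, then lay below 1.5-fold. At day 5 over day 0, 11 of 14 were above 0 (median 0.13) with 0 called, and at day 5 over day 3, 4 of 14 (median -0.08) with 0 called. Over all genes 51.2% and 50.1% were above 0 in these comparisons. Called higher were 1.76% and 2.29% of all genes, and called lower 1.28% and 0.961%. With the authors' TPM, 7 of 14 were above 0 at day 5 over day 3 (median 0.03), against 64.6% of all genes (median 0.09). XBP1, the transcription factor that IRE1 activates by splicing, had 0.49 at day 3 over day 0 and 0.18 at day 5 over day 0. CRELD2 (0.56 and 0.07) shared its highest day with XBP1, and MANF (0.45 and 0.56) was highest at day 5. Both ratios of a gene share the day 0 library.

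Genes that share the promoter motifs gave no uniform picture. Of the genes whose window holds an ERSE, as that of CRELD2 does, 16 were compared. At day 3 over day 0, 10 of them were above 0 and 2 rose by the call (HSPA5 and HSP90B1), with a median of 0.07, and CRELD2 came next to these in its ratio. The ERSE group had a median of 0.05 at day 5 over day 0 and -0.16 at day 5 over day 3, with 0 called higher and 1 called lower in each. Over all genes 1.76% were called higher and 1.28% lower at day 5 over day 0. At day 5 over day 3 these shares were 2.29% and 0.961%. Of 117 compared genes with a UPRE, as in KDELR3, 62 were above 0 at day 3 over day 0, with a median of 0.01, 0 called higher and 1 called lower. Over all genes 52.0% were above 0, 1.29% were called higher and 2.53% lower. Of 14 with an ERSE-II, 9 were above 0, with a median of 0.14 and 2 called higher (HERPUD1 and SDF2L1). MANF, with separate cores and no exact match, belongs to none of these groups.

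The genes most like each of the 5 were found by the distance between their pairs of log2 ratios at day 3 and day 5 over day 0, among genes with at least 200 reads on average and at least 90% unique reads (7320 for 4 of the 5 genes). These are 2 ratios from 3 libraries, so likeness here is a description. Within 0.1 lay 12 genes for MANF and 8 for CRELD2, and 798 for KDELR1, 826 for KDELR2 and 552 for KDELR3. These counts follow from how far each gene's ratios lie from 0, where most genes are, and are no separate result. Counting intervals of single genes can be wider than 0.1, as for IL6R at day 3 over day 0 (0.11 to 0.73). The nearest to MANF were NDUFB3, a subunit of respiratory complex I (0.44 at day 3 and 0.54 at day 5 over day 0), SMIM20 (0.49 and 0.56) and IL6R, the interleukin 6 receptor (0.42 and 0.54). The nearest to CRELD2 were SEZ6L2 (0.56 and 0.08), TMEM101 (0.54 and 0.05) and CCDC167 (0.54 and 0.10). For the receptors the nearest were LTBR, PDLIM1 and SNAPC2 to KDELR1, PSMD8, SLC25A12 and ALS2CL to KDELR2, and USP8, SDAD1 and SAR1B to KDELR3, each less than 0.01 away.

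**Figure D5:**
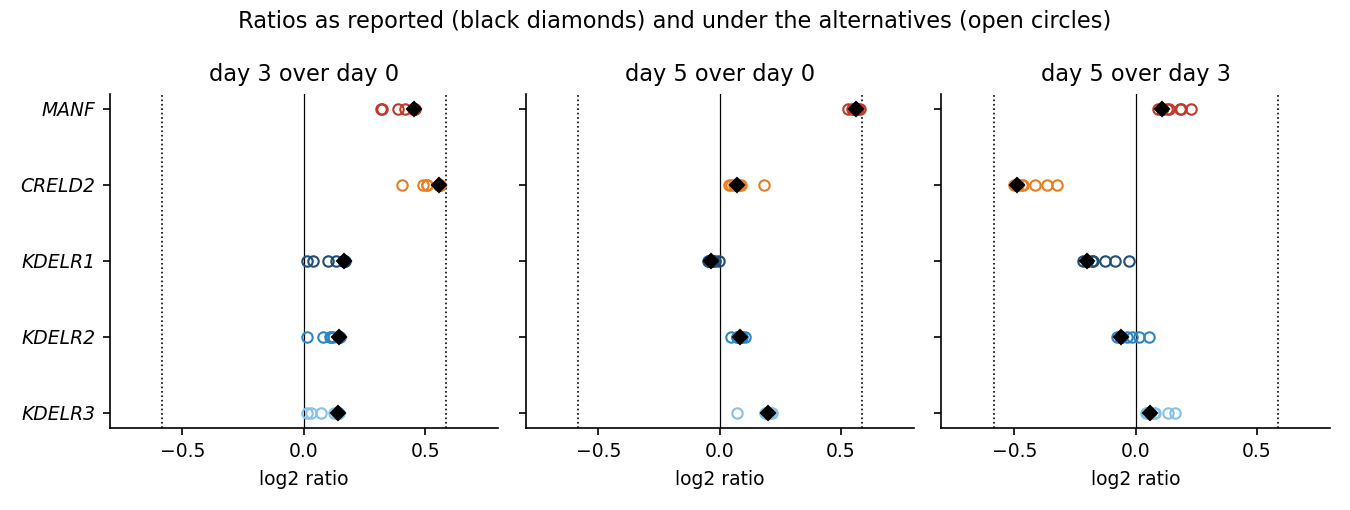
Log2 ratios of the 5 compared genes (horizontal axes) as reported, black diamonds, and under the alternative scalings, read classes and settings, open circles. Dotted lines mark 1.5-fold: no value passes them, MANF at day 3 over day 0 runs from 0.32 to 0.46, and KDELR1 and KDELR2 reach 0.01 at day 3 over day 0.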

How the data were processed

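Per the labels' protocols, RNAiso Plus served for RNA extraction and a SMARTer mRNA-seq kit for library preparation. Per the file headers, the deposited tables give read counts per gene (total, unique, exon, exon-exon and intron reads), exon length and the authors' TPM. Neither aligner nor counter is given in the sources used here. The submitters' processing notes name mm10, but the identifiers are human: 57980 of 58243 are in GENCODE 29, and 56577 of these (97.6%) have the same position on GRCh38. A table of the whole series was left out with its 3 sample columns.

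Ratios came from total gene reads scaled with edgeR 4.0.16 TMM factors (1.01, 0.968 and 1.02 at day 0, day 3 and day 5). Log2 ratios used a prior count of 0.5, with 95% exact conditional (Clopper-Pearson) intervals, which cover counting error only; no molecular identifiers are mentioned. Counts were simulated with 200 changed and 12393 unchanged genes. Of the changed genes, 200, 200 and 197 were called at day 3 and day 5 over day 0 and day 5 over day 3. Of the unchanged genes, 26, 28 and 24 were called in the same order. Variation between replicate libraries is not measured in these data, so these counts are not error rates for the real libraries. They also do not show how often changes smaller than those simulated would be called. Alternatives covered DESeq2 1.42.0 size factors, other scalings, read classes, minima and thresholds. The design planned to compare protein ends and identity, and coding sequences took their place. The rule for named genes took the 6 genes, SYVN1, HSPA5, from each list and comparison the 3 genes farthest from a ratio of 0, the 3 nearest patterns and overlapping genes; values are given for some of the list members. The 6 genes and all lists were chosen with earlier results of these data known.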

Additional observations from a re-analysis of the deposited data

How the results depend on the processing

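In each comparison 0 of the 5 compared genes were called, as reported and under all 15 alternatives, except that KDELR2 was not compared where at least 90% unique reads were required. The rules that asked for 2-fold or for an interval beyond 1.5-fold are stricter than the main rule, so they could not add a call. Of 192 alternative values for the 5 genes, 178 stayed within their counting interval and 14 moved beyond it. Where the reported interval excluded 0, 0 alternatives turned the direction. The 178 include settings that change only which genes are compared (minimum reads, at least 90% unique reads, protein-coding). Those leave each ratio as reported by construction, so they are no check of its size. The largest shifts came with the authors' TPM and with length and GC trends removed. MANF at day 3 over day 0 was 0.32 under both, CRELD2 at day 3 over day 0 was 0.41 with TPM, and CRELD2 at day 5 over day 3 was -0.33 with trends removed. KDELR2 at day 5 over day 3, reported as -0.06 [-0.12 to 0.00], ran from -0.08 to 0.06 over the alternatives. Its highest value, with TPM, was in the other direction and beyond that interval. The median over all genes at day 5 over day 3 was also higher with TPM, at 0.09 against 0.00. HSPA5 kept its call at day 3 with TPM (0.59), whereas SDF2L1 (0.49), HSP90B1 (0.46), DDIT3 (0.54), HERPUD1 (0.55) and DNAJB9 (0.46) lay below 1.5-fold. The median over all genes at day 3 over day 0 was also lower with TPM, at -0.08 against 0.01, and the cause was not tested.

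Over all genes, the counts of called genes depended on the settings. At day 3 over day 0, 163 genes were called higher (25 to 520 under the alternatives) and 318 lower (53 to 840). At day 5 over day 0, 222 were higher (38 to 725) and 161 lower (27 to 623), and at day 5 over day 3, 288 were higher (57 to 924) and 121 lower (24 to 483). Library totals without TMM gave 115 higher and 427 lower at day 3 over day 0, and 426 higher and 74 lower at day 5 over day 3. The authors' TPM gave 397 higher and 89 lower at day 5 over day 3. With TPM, the ratios of SERPINH1 (-0.0185) and ARF4 (-0.0116) at day 3 over day 0 turned below 0. At day 5 over day 3, SNAPC2 (0.0235) and PSMD8 (0.11) turned above 0 with trends removed, and PSMD8 also without TMM (0.0114) and with TPM (0.0542). No paired analysis was possible because each day has 1 library. Depth limits what could be seen for CDNF (5 or 6 reads) and KDELR3 (269 to 375 reads).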
